A study of Rattus norvegicus with 54 samples.

Results

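The comparison described here is magnesium-free medium against medium with magnesium, after 24 h, in cultures of rat cortical neurons that carried a control virus. Its members are 6 RNA sequencing libraries of 54 in the series, 3 per medium, chosen by their titles and paired by the number of the cell culture. All cultures came from the cortex of rat embryos at day 18 of gestation. Both groups had received AAV_SYN_GFP, an adeno-associated virus that carries GFP and serves in this design as the control for a virus carrying rMBD3. SYN is the usual short name of the synapsin promoter, which is active mainly in neurons, and the labels do not say what share of the cells was transduced. The labels call the magnesium-free condition epileptic and the other one standard. The other cultures at 24 h, 6 untransfected and 6 with the virus carrying rMBD3 (AAV_SYN_rMBD3), had the same pair of media and the same culture numbers, and are used for comparison. Labels give neurons as the cell type. That label was not checked against marker genes, because the count table lists genes by Ensembl identifier and 0 identifiers were matched to symbols.

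Magnesium ions sit in the pore of the NMDA type of glutamate receptor and block it while a neuron is at rest. Taking magnesium out of the medium lifts that block, and networks of cultured neurons then fire in recurrent synchronous bursts, which is why magnesium-free medium is used as a model of epileptiform activity. Calcium that enters through the open receptors switches on an early wave of transcription within minutes to hours, and slower programmes follow it. The question asked of these 6 libraries is which transcripts differed after a day in this state.

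The 6 libraries held 19380599 to 29107244 counts, within the range of 14448927 to 39691105 over the series, and detected 16087 to 17041 genes each. In each culture the magnesium-free library held fewer counts, with 19380599, 24810034 and 26003021 in cultures 1, 2 and 3. With magnesium these were 24563657, 27554446 and 29107244. In untransfected cultures at 24 h the magnesium-free library held more counts in each culture. In rMBD3 cultures it held more in culture 1 and fewer in cultures 2 and 3. The part of depth in the medium differences was not tested. A count of 3, taken as the floor of detection, corresponds to 0.103 to 0.155 CPM (counts relative to library size) in the 6 GFP libraries, and this floor covers counting error only. No pair of libraries within a medium looked like copies of 1 library, since chi-square per gene between them was 51.8 to 159. Deviations from the group means correlated across genes at 0.362, 0.272 and 0.161 between the magnesium-free and the magnesium library of cultures 1, 2 and 3. Libraries of different number gave -0.294 to 0.124, the highest for culture 2 with magnesium and culture 3 without it. Deviations from a mean of 3 libraries depend on one another, so the pairing of culture 3 is weakly shown. The culture number was kept as a block. The labels name the cultures as biological replicates and do not say whether they came from separate litters.

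Across the transcriptome, genes at an unadjusted p under 0.05 (edgeR) were more often lower than higher in magnesium-free medium. Of the 755 lower ones, 420 were genes whose transcripts decline during the first day in control cultures. That class held 10.3% of all genes tested. Of the 202 genes that span over 500 kb of the genome, 42 were among the lower ones and 0 among the higher ones. These shares were 20.8% and 0%, against 4.69% and 2.37% of all genes. No single gene passed correction. In edgeR's quasi-likelihood test on the 18 libraries at 24 h with the culture block, 0 of 16104 genes passed an adjusted p of 0.05 (0% called), and the smallest adjusted p was 0.701. At an unadjusted p under 0.05 there were 755 lower genes (4.69% of those tested) and 381 higher genes (2.37%), 1136 together (7.05%), where a uniform distribution of p would give 805. Genes vary together between libraries, so such a count need not follow that number. Other contrasts of the same fit gave 193 to 635. The median log2 difference over all genes was 0.01. The libraries of both media did not overlap for 686 genes that were lower without magnesium (4.26%) and for 764 that were higher (4.74%).

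Which genes passed differed between fits. The fits differ in libraries, genes kept, block, test or estimate of the spread, and the part of each was not tested. DESeq2 on the same 18 libraries, with 19562 genes tested, called 41 genes, 27 lower and 14 higher. A fit of all 54 libraries with a culture block for each time point called 274 of 17172 (1.6%), 264 lower (1.54%) and 10 higher (0.0582%). A fit of the 6 libraries alone called 235 of 14727 (1.6%), 226 lower (1.53%) and 9 higher (0.0611%). These last counts share 72 genes, which is 26.3% of the 274 and 30.6% of the 235. Lower genes were the larger part of the calls in these 3 fits. Without the culture block the 18 libraries gave 158 lower and 153 higher genes at an unadjusted p under 0.05 (edgeR), so there the excess of lower genes was nearly gone. The coefficient of biological variation was 36.5% in the 18 libraries, 26.8% in the 54 and 25.9% in the 6. Of the 274 genes, 273 were tested in the 18 libraries and 269 of them had an unadjusted p under 0.05 there. The 18 libraries are part of the 54 and both fits compare the same 6 GFP libraries, so this is not separate support. The count of 274 depends on single cultures: it was 494 without culture 1, 1 without culture 2 and 65 without culture 3. In the fit of the 6 libraries alone, leaving out culture 1, 2 or 3 gave 637, 484 and 0 genes.

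The 4 genes shown next are the leading ones of each direction, by the smallest unadjusted p among genes with a mean log2 CPM of at least 1 and the same sign in all 3 pairs. They are given by identifier, with coordinates on the mRatBN7.2 build of the rat genome, and none of them passed the adjusted threshold in the 18 libraries. They stand for lists of 10 per direction. The 10 lower genes had log2 differences of -1.89 to -0.75 and unadjusted p of 0.000393 to 0.00197 (edgeR), and 9 of them belong to the genes that decline over the day in control cultures, against 10.3% of all genes. The 10 higher genes had log2 differences of 0.49 to 1.53 and unadjusted p of 0.00177 to 0.00559 (edgeR), and 0 of them belong to those declining genes. In the fit of 54 libraries 10 of the lower and 3 of the higher genes were called, and in the fit of 6 libraries 9 and 1. These fits compare the same 6 GFP libraries and are not separate support.

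ENSRNOG00000024870 lies on chromosome 7 from 24312843 to 25477693 (plus strand), with 29 annotated exons in a span of 1160 kb. With magnesium it had 33.4, 14.2 and 23.2 CPM in cultures 1, 2 and 3, and without magnesium 17.1, 3.13 and 5.01 CPM. Every culture was lower without magnesium, but the magnesium-free library of culture 1 was above the magnesium library of culture 2, so that the groups overlap and the difference shows only within cultures. Between media the log2 difference was -1.85 ± 0.41 (SE; in 18 libraries edgeR's adjusted p was 0.701), and the pairs gave -0.96, -2.15 and -2.20. The adjusted p was 0.00335 in edgeR's fit of 54 libraries and 0.0295 in that of 6. Levels were lower at later times in both media. At 2 h the GFP cultures held 115 ± 9.07 CPM with magnesium and 100 ± 5.01 without it, and after 6 h 57.6 ± 17.3 and 39 ± 5.71. By 24 h these means were 23.4 ± 9.56 and 8.29 ± 7.43 (SD, n = 3 each, scaled over all 54 libraries).

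ENSRNOG00000004438, also on chromosome 7 (123372792 to 123558541, plus strand, 25 exons), followed the same course. Its levels were 50.7, 15.1 and 21.5 CPM with magnesium and 25.4, 6.39 and 7.25 CPM without it, in cultures 1, 2 and 3. Again the 3 pairs were lower, by log2 differences of -1, -1.23 and -1.56, while culture 1 without magnesium exceeded cultures 2 and 3 with it. The fitted log2 difference was -1.29 ± 0.30 (SE; edgeR's adjusted p was 0.701), and the adjusted p was 0.00755 with 54 libraries and 0.0295 with 6 (edgeR). At 2 h the gene held 280 ± 19 CPM with magnesium and 243 ± 9.71 without, and after 6 h 84.8 ± 29 and 62.2 ± 9.29 (SD, n = 3).

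ENSRNOG00000026186 (chromosome 2, 234897717 to 234930994, plus strand, 7 exons) was the first of the higher genes. It had 9.07, 8.47 and 9.75 CPM with magnesium in cultures 1, 2 and 3 and 17.3, 14.8 and 14.5 CPM without it. All magnesium-free libraries lay above all magnesium libraries, which held for 4.74% of all genes tested. Between media the log2 difference was 0.76 ± 0.20 (SE; edgeR's adjusted p was 0.701), and 0.0602 was the adjusted p with 54 libraries. At the earlier times the media differed by less than the SD of either group, with 8.16 ± 2.89 and 8.74 ± 0.927 CPM at 2 h and 8.26 ± 0.982 and 8.02 ± 1.79 CPM at 6 h with and without magnesium (SD, n = 3). At 24 h untransfected cultures had 12.6 ± 1.95 and 14.1 ± 3.48 CPM of it and rMBD3 cultures 14.7 ± 1.06 and 13.2 ± 1.15, with and without magnesium, so the GFP mean with magnesium, 9.01 ± 0.645, was the lowest of the 6 groups (SD, n = 3, scaled over all 54 libraries).

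ENSRNOG00000023271 (chromosome 11, 80593192 to 80620506, plus strand, 12 exons) differed by less but as regularly. Levels were 37.9, 46.3 and 43.1 CPM with magnesium and 60.4, 62.1 and 55.7 CPM without, again with no overlap. Between media the log2 difference was 0.49 ± 0.13 (SE; edgeR's adjusted p was 0.701), with an adjusted p of 0.0279 in the fit of 54 libraries and 0.124 in that of 6. In rMBD3 cultures the same gene was at 62.9 ± 3.6 CPM with magnesium and at 65.9 ± 3.37 without it, and in untransfected cultures at 48.8 ± 6.85 and 46.7 ± 4.43 (SD, n = 3).

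The call moved with the tool and with single cultures for 3 of these 4 genes, and ENSRNOG00000026186 was called under no alternative. DESeq2 on the 18 libraries gave ENSRNOG00000024870 an adjusted p of 0.00865, ENSRNOG00000004438 one of 0.0299, ENSRNOG00000023271 one of 0.039 and ENSRNOG00000026186 one of 0.058. In edgeR's fit of 54 libraries, leaving out culture 2 ended the calls of ENSRNOG00000024870 (log2 difference -1.64, adjusted p = 0.163), ENSRNOG00000004438 (-1.32, 0.163) and ENSRNOG00000023271 (0.53, 0.302). In that fit ENSRNOG00000023271 also lost its call without culture 1 (0.40, adjusted p = 0.16) and without culture 3 (0.54, 0.0882), and ENSRNOG00000004438 without culture 3 (-1.14, 0.0546). In the fit of 6 libraries, both lower genes kept their call without culture 2 (edgeR's adjusted p 0.00302 and 0.00216) and lost it without culture 3 (0.16 each, at -1.55 and -1.13). Their directions were the same under every alternative run.

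**Figure D1:**
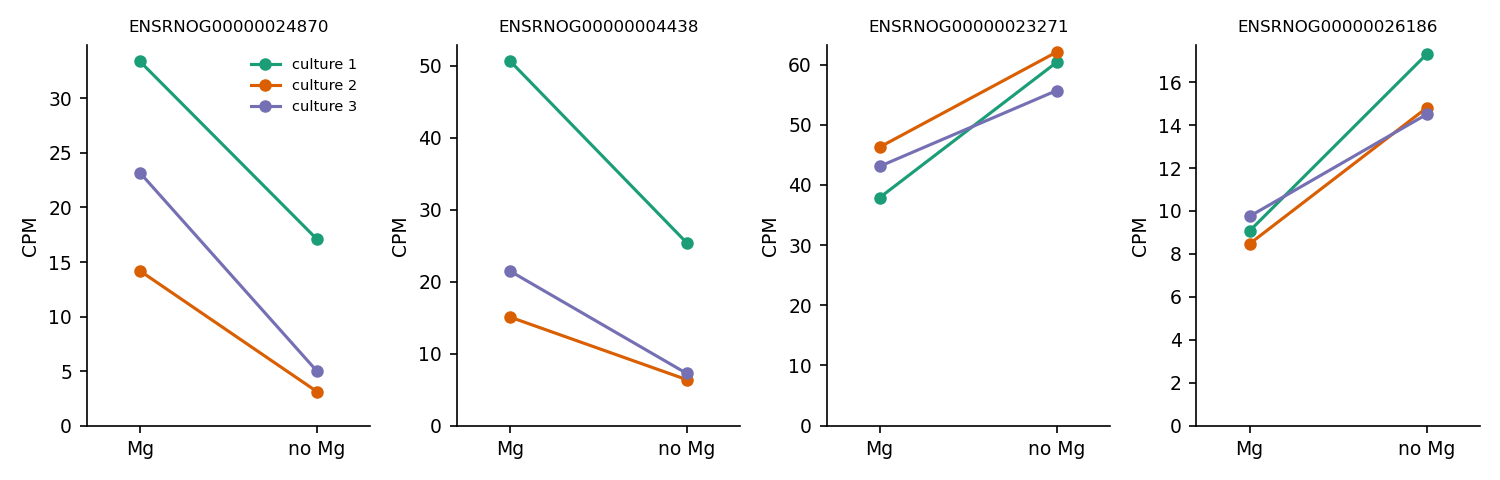
Level in CPM (y axis, starting at 0) of the 4 named genes in medium with magnesium (Mg) and without it (no Mg), in GFP cultures at 24 h, with 1 line per culture. The genes in the first and second panels are lower without magnesium in each culture although the groups overlap, and in the other panels all magnesium-free libraries lie above all magnesium libraries.

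Genes that change during the first day in control cultures were examined as groups. They were defined by a contrast that holds no GFP library, as genes that differed between 24 h and 2 h in untransfected cultures with magnesium at an adjusted p under 0.05 (edgeR, 54 libraries) and by more than 1 on the log2 scale. This gave 1651 genes that fell with time (10.3% of those tested) and 1094 that rose (6.79%). Only the contrast is separate: the GFP libraries took part in that fit's scaling, spread and culture terms, and the same culture numbers run through all constructs.

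The 1651 genes that fell with time had a median log2 difference of -0.58 between media in GFP cultures, and medians of -0.39, -0.53 and -0.69 within cultures 1, 2 and 3. Within-culture values are differences of log2 CPM, a measure unlike the fitted difference, and the fitted median can lie outside them. With no minimum size of the time change, the class held 2871 genes and its median was -0.22. At an unadjusted p under 0.05, 420 of them were lower (25.4%, against 4.69% of all genes) and 2 were higher. All 3 pairs were lower for 873 of them (52.9%), against 19.3% of all genes. Their mean log2 CPM was 3.77, 3.00 and 3.41 with magnesium in cultures 1, 2 and 3, and 3.34, 2.37 and 2.65 without it. Each culture was thus lower without magnesium, and culture 1 without magnesium was above culture 2 with it. Over all 16104 genes the mean also went down, from 3.63, 3.48 and 3.49 to 3.5, 3.37 and 3.38 in the same order. Class means here and below are given without subtracting this shift.

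The 1094 genes that rose with time showed a smaller difference of the opposite sign, with a median of 0.16 and medians of 0.14, 0.01 and 0.31 within cultures. Of these genes 71 were higher at an unadjusted p under 0.05 (6.49%, against 2.37% of all genes) and 7 lower. The mean log2 CPM of the class was 4.06, 4.32 and 3.91 with magnesium and 4.12, 4.27 and 4.2 without. In culture 2 the class mean thus went down, as the mean over all genes did, while the class median there was 0.01. The other 13359 genes had a median of 0.03, with 328 lower (2.46%) and 308 higher (2.31%). Over all 16104 genes the Spearman correlation between the medium difference and the change with time was 0.26, a description across genes that share libraries and depth.

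**Figure D2:**
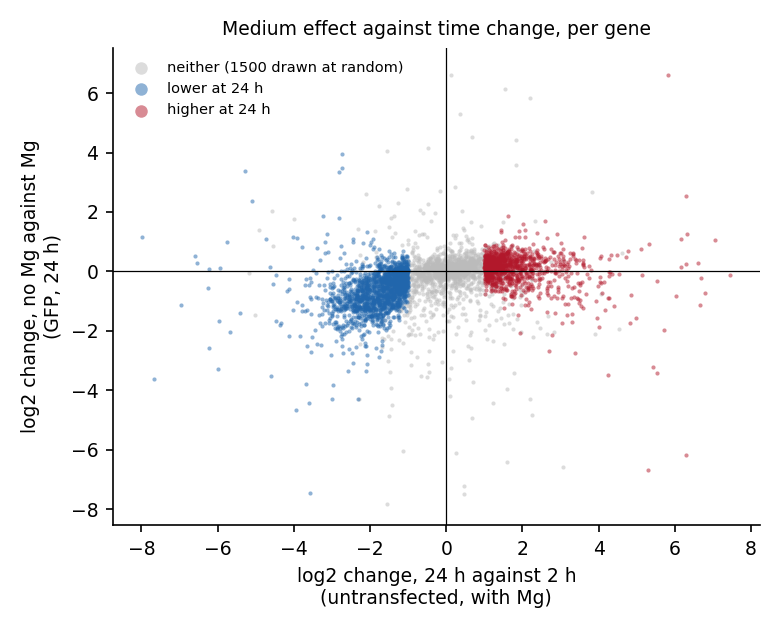
Each point is a gene: the x axis gives its log2 change from 2 h to 24 h in untransfected cultures with magnesium, and the y axis its log2 difference between magnesium-free and magnesium medium in GFP cultures at 24 h. Genes that fell with time (blue, 1651 genes, median -0.58) lie mostly below zero, genes that rose (red, 1094 genes, median 0.16) lie around and above it, and the grey points are a random sample of the other genes.

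The difference in declining genes was present at every level of expression. With the 16104 genes divided into quartiles by their mean level over the 18 libraries, the declining genes had medians of -0.82, -0.71, -0.43 and -0.36 from the lowest to the highest quartile, while the genes that changed in neither direction had medians of -0.32, 0.03, 0.07 and 0.05. In the highest quartile 55 of 194 declining genes were lower at an unadjusted p under 0.05 (28.4%) and 1 was higher. In the lowest quartile the genes that changed in neither direction had within-culture medians of -0.21, -0.08 and -0.11, and 3.87% of them were lower at an unadjusted p under 0.05, below the 4.69% of all genes. That quartile as a whole had a median of -0.36, against -0.03, 0.05 and 0.05 in the others.

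Very long genes were the other group. In neurons many of the longest genes code for synaptic adhesion proteins, ion channels and receptors, and transcribing such a gene takes hours. Of the 16104 genes, 202 spanned over 500 kb, and their median log2 difference was -0.56, with medians of -0.38, -0.40 and -0.58 within cultures 1, 2 and 3. At an unadjusted p under 0.05, 42 of them were lower (20.8%, against 4.69% of all genes) and 0 were higher. Their mean log2 CPM was 3.33, 2.49 and 2.73 with magnesium and 2.87, 1.99 and 2.04 without it. The 716 genes of 200 to 500 kb had a median of -0.13, with 97 lower (13.5%) and 13 higher. The 3439 genes of 50 to 200 kb had a median of 0.03 and the 11747 genes under 50 kb a median of 0.01, with 5.38% and 3.67% lower.

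**Figure D3:**
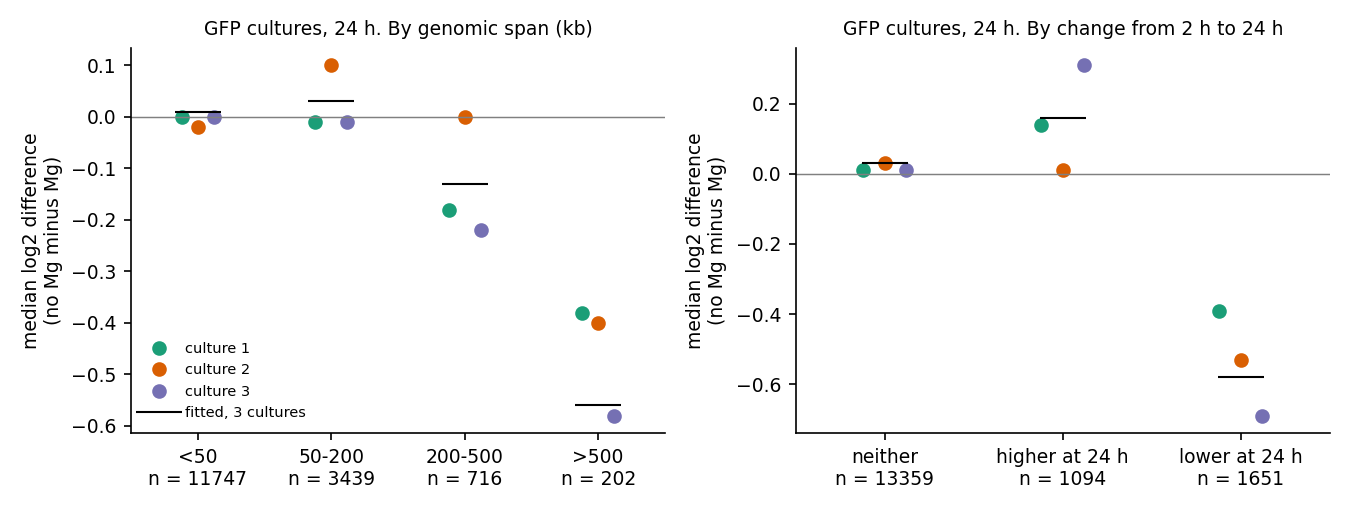
Median log2 difference between magnesium-free and magnesium medium in GFP cultures at 24 h (y axis), for genes grouped by genomic span (left) and by their change from 2 h to 24 h in untransfected cultures (right). Coloured points are medians of log2 CPM differences in the 3 cultures, and bars are medians of the fitted difference, a different measure. The fitted median reaches -0.56 for genes over 500 kb and -0.58 for genes that fell with time.

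Long span and decline with time overlapped. Of the 202 longest genes 96 fell with time (47.5%, against 10.3% of all genes), and these had a median of -0.80. The 95 longest genes that changed in neither direction had a median of -0.28, with within-culture medians of -0.20, -0.07 and -0.26 and 9 genes lower at an unadjusted p under 0.05 (9.47%). The fitted median thus lay outside the within-culture values, which are a different measure. Short genes showed the decline as well: the 915 genes under 50 kb that fell with time had a median of -0.56, with 203 lower (22.2%) and 2 higher. The genes that fell with time had a negative median in every span class, and the longest genes that changed in neither direction had a smaller negative one. Among genes over 200 kb the difference depended on level, with medians of -0.76, -0.40, -0.05 and 0.06 from the lowest to the highest quartile.

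Differences by exon number were smaller. Genes with 1 exon had a median of -0.13, those with 2 to 5 exons -0.07, those with 6 to 10 exons 0.00, those with 11 to 20 exons 0.05 and those with over 20 exons 0.04. The share lower at an unadjusted p under 0.05 was 3.13%, 4.75%, 4.23%, 4.66% and 6.06% in the same order. Expression level rose with exon number, with median log2 CPM of 0.17, 2.68, 4.42, 4.99 and 5.38, and exon number and level were not separated. By chromosome, the share of genes lower at an unadjusted p under 0.05 ran from 2.44% on chromosome 11 to 6.49% on chromosome 15 among the numbered chromosomes, and it was 5.63% on chromosome X.

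Genes of the mitochondrial chromosome, which code for core subunits of the respiratory chain and for the RNAs of mitochondrial translation, were lower in value without passing any threshold. Of 37 such genes 25 were tested. Of these, 13 were lower in all 3 pairs (52%, against 19.3% of all genes) and 0 higher in all 3 (against 18.7%). An unadjusted p under 0.05 (edgeR) was reached by 0 of them, against 4.69% of all genes lower and 2.37% higher. Their median log2 difference was -0.43, with -0.61, -0.09 and -0.47 within cultures 1, 2 and 3. They took 3.88%, 2.37% and 2.62% of the counts with magnesium and 2.66%, 2.07% and 1.89% without it. Each culture was lower without magnesium, and the groups overlap. The share of counts in the 50 most abundant genes moved the same way, from 15.1%, 12.9% and 13.4% to 14.1%, 12.5% and 12.5%. The part of these shares in the other results was not tested. In bulk libraries such as these, fewer cells of a type and less of a transcript per cell cannot be told apart.

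In genes that fell with time, the median medium difference in GFP cultures was closer to zero at the earlier times. In the fit of 54 libraries these genes had medians of -0.16 at 2 h, -0.31 at 6 h and -0.59 at 24 h, and the share lower at an unadjusted p under 0.05 was 0.848%, 6.24% and 48.3%, against 0.441%, 1.88% and 11.1% of all 16104 genes. Their mean log2 CPM at 2, 6 and 24 h was 5.45 ± 0.03, 4.57 ± 0.35 and 3.38 ± 0.39 with magnesium and 5.31 ± 0.10, 4.29 ± 0.11 and 2.77 ± 0.49 without it (SD, n = 3). The group means were lower without magnesium at each time, and at 6 h and 24 h the gap between them was smaller than the sum of the standard deviations. Those deviations hold the spread between cultures, which pairing sets aside, and at 24 h each culture was lower without magnesium, as given above. Genes over 500 kb had medians of -0.10, -0.28 and -0.58 at 2, 6 and 24 h.

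Genes that rose with time had medians of 0.21, 0.27 and 0.16 at 2, 6 and 24 h, so their difference did not widen. No gene passed a test of the change itself in edgeR's fit of 54 libraries. For 24 h minus 2 h, 0 genes passed and 1089 had an unadjusted p under 0.05, and for 24 h minus 6 h, 0 passed and 1034 did so. DESeq2 called 19 and 17 of 21461 genes in these tests. Without culture 1, edgeR called 9 and 11. Within GFP cultures at 2 h and at 6 h 0 genes passed in edgeR, with 174 and 670 at an unadjusted p under 0.05. The medium difference at 24 h is therefore not shown to differ from that at 2 h or 6 h for any single gene in this fit.

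**Figure D4:**
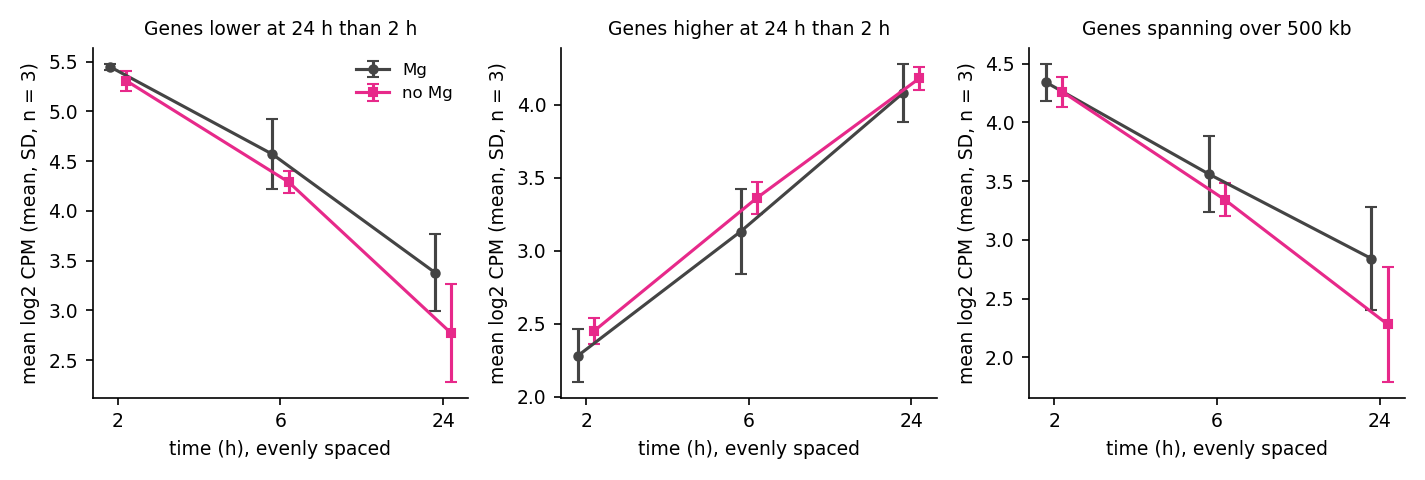
Mean log2 CPM (y axis) of 3 groups of genes in GFP cultures at 2, 6 and 24 h (x axis, evenly spaced), with magnesium (grey circles) and without it (pink squares), as mean and SD of 3 cultures. In genes that fell with time the magnesium-free mean is below the other at each time, and the medians of the difference are -0.16, -0.31 and -0.59.

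Cultures without virus and cultures with rMBD3 were then set beside the GFP cultures. In untransfected cultures at 24 h 0 genes passed in edgeR (18 libraries) and 635 had an unadjusted p under 0.05, and in rMBD3 cultures 0 passed and 193 had. DESeq2 called 30 and 31 of 19562 genes tested. The difference of the medium effect between GFP and untransfected cultures passed for 0 genes, with 225 at an unadjusted p under 0.05, and that between GFP and rMBD3 cultures for 0 genes, with 251. Both counts are below the 805 that a uniform distribution would give, a number that genes varying together need not follow. DESeq2 called 24 and 29 of 19562 genes in these tests. The medium effect of the GFP cultures is thus not shown to be particular to them.

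The genes that led in GFP cultures mostly had the same sign in the others. Of the 755 lower genes 685 were also lower in untransfected cultures (90.7%, against 51.7% of all genes), with a median log2 difference of -0.76 there and -1.32 in GFP cultures. In rMBD3 cultures 590 were lower (78.1%, against 47.1%), with a median of -0.32. Of the 381 higher genes, 288 were higher in untransfected cultures (75.6%, against 48.3%) and 300 in rMBD3 cultures (78.7%, against 52.9%), with medians of 0.14 and 0.16 against 0.60 in GFP cultures. The 3 constructs share culture numbers and the fit, but no library. These values are fitted over 3 cultures, and single cultures were not examined for these genes. On the first principal component, given below, untransfected cultures shifted by 6.7, 5.6 and -103 and rMBD3 cultures by -70.3, 6.1 and -9.1. The GFP medians are a description, since the genes were chosen on these values.

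For the genes that fell with time the medians were -0.58 in GFP, -0.46 in untransfected and -0.10 in rMBD3 cultures. The untransfected value rests on libraries that also defined the group, since their magnesium libraries at 24 h set the decline. In single cultures the mean log2 CPM of these genes in untransfected cultures went from 3.93, 2.54 and 3.72 with magnesium to 3.66, 2.57 and 2.84 without it, so that culture 2 did not share the direction. In rMBD3 cultures it went from 3.51, 2.25 and 2.29 to 3.17, 2.35 and 2.24. With magnesium, rMBD3 cultures 2 and 3 were thus already below 2.37, the lowest of the GFP libraries. Culture 1 of that construct was lower without magnesium, culture 3 slightly lower and culture 2 higher. Genes over 500 kb had medians of -0.56, -0.54 and -0.04 in the GFP, untransfected and rMBD3 cultures. Their mean log2 CPM in untransfected cultures went from 3.84, 2.21 and 3.42 to 3.35, 2.12 and 2.46, lower in each culture as in GFP cultures. In rMBD3 cultures it went from 3.17, 1.86 and 1.81 to 2.84, 1.96 and 1.78, higher in culture 2.

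**Figure D5:**
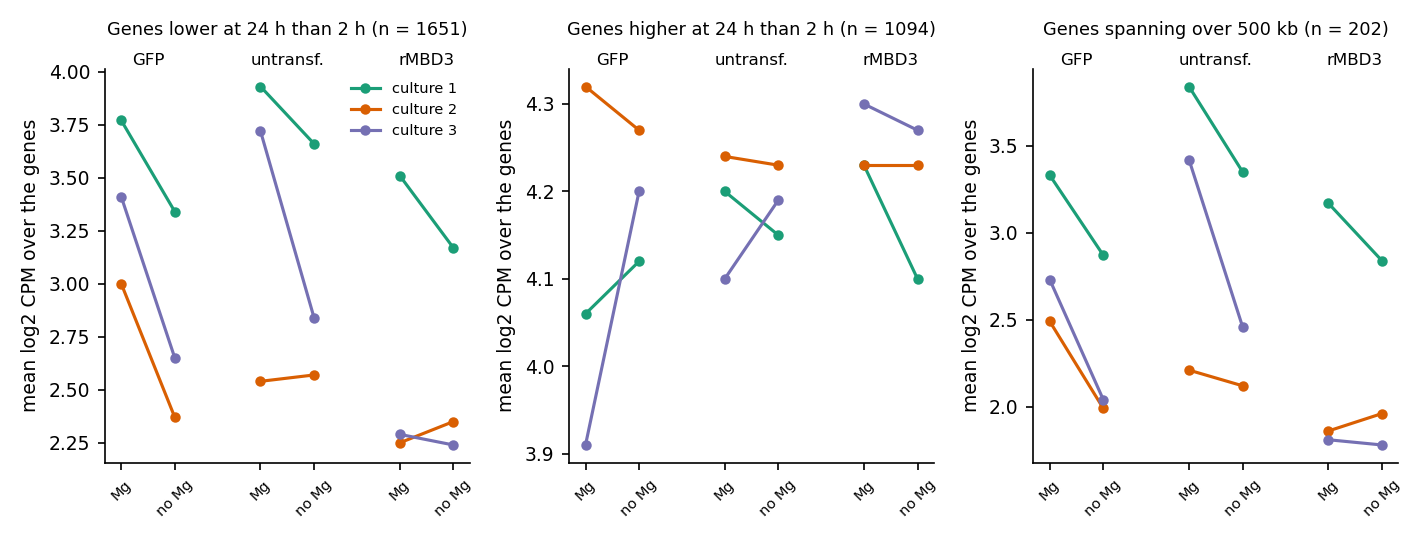
Mean log2 CPM over the genes of 3 groups (y axis, range differs between panels) at 24 h with magnesium (Mg) and without it (no Mg), for GFP, untransfected and rMBD3 cultures, with 1 line per culture. In the left panel all 3 GFP lines go down, from 3.77, 3.00 and 3.41 to 3.34, 2.37 and 2.65, while culture 2 does not go down in untransfected or in rMBD3 cultures. For the longest genes, in the right panel, all GFP and all untransfected lines go down.

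The libraries also spread along 1 main axis of variation, on which the media overlapped. The first principal component of log2 CPM over the 18 libraries held 38.2% of the variance. GFP libraries had scores of 85.0, 4.25 and 21.5 with magnesium in cultures 1, 2 and 3 and of 52.8, -64.5 and -36.0 without it, shifts of -32.2, -68.8 and -57.5. Untransfected cultures shifted by 6.7, 5.6 and -103, and rMBD3 cultures by -70.3, 6.1 and -9.1. All 3 GFP pairs moved the same way, whereas in each of the other constructs a single culture made a large shift, culture 3 without virus and culture 1 with rMBD3. With these single large shifts the mitochondrial share fell, from 4.9% to 2.73% in untransfected culture 3 and from 3.56% to 1.95% in rMBD3 culture 1. It went from 3.16% to 4.07% and from 1.75% to 1.77% in untransfected cultures 1 and 2, and from 2.24% to 2.31% and from 1.85% to 2.09% in rMBD3 cultures 2 and 3. In rMBD3 culture 3 it thus rose while the score shifted by -9.1. Within GFP cultures the fall was smallest in culture 2, from 2.37% to 2.07%, although that culture had the largest shift. The 5 libraries with the highest scores, 74.1 to 92.2, also had the 5 highest mitochondrial shares, 3.16% to 4.9%. The part of that share in the medium differences was not tested.

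One gene differed between GFP and rMBD3 cultures in its response to the medium in the fit of 54 libraries, and it was named after its values were seen. ENSRNOG00000008992 (chromosome 5, 137767865 to 137984307, plus strand, 17 exons) had 4.93, 2.86 and 5.83 CPM with magnesium and 5.27, 0.431 and 1.18 CPM without it in GFP cultures 1, 2 and 3. In rMBD3 cultures it had 1.32, 0.181 and 0.148 CPM with magnesium and 7.72, 0.658 and 0.471 CPM without. It was lower without magnesium in GFP cultures 2 and 3 only, and higher in all 3 rMBD3 cultures, where the counts behind the values of cultures 2 and 3 were 5, 4, 17 and 12. The difference of the log2 medium effects, GFP minus rMBD3, was -3.90 ± 0.65 (SE; adjusted p = 0.0129, edgeR, 54 libraries). In the 18 libraries it was -3.96 ± 0.89 with an adjusted p of 1 (edgeR), and with DESeq2 the adjusted p was 0.00931.

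How well 1 pair of libraries repeated the others was described by leaving each culture out. Genes lower at an unadjusted p under 0.05 in the 12 libraries of the other cultures numbered 846, 327 and 765 when culture 1, 2 or 3 was left out, and 73.9%, 73.1% and 92.5% of them were also lower in the GFP pair left out, against 49.6%, 49.1% and 49.3% of all genes. The median difference in the left-out pair was -0.40, -0.70 and -0.87. Higher genes numbered 676, 100 and 209, and 52.4%, 62.0% and 78.9% were also higher in the pair left out, against 50.4%, 49.7% and 49%. By these shares the lower direction recurred in each left-out culture, and the higher direction in culture 1 was near the share of all genes. Genes that vary together are counted singly here, and all 3 GFP pairs shifted the same way on the first principal component. The shares thus describe 1 pair at a time and are not independent support for any gene.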

How the data were processed

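RNA sequencing counts of rat cortical neuron cultures were analysed for 6 GFP libraries at 24 h, within 18 libraries of that time and 54 in all. Per the labels, RNA was taken from washed cells and stranded mRNA libraries were aligned with STAR. Per the file headers, the authors made the deposited counts with featureCounts 2.0.0 on the reverse strand (setting 2), with a mapping quality of at least 3 and the Ensembl release 105 annotation of mRatBN7.2. The labels' protocol names rn6 instead, while the submitters' processing notes name mRatBN7.2, the build of the coordinates printed here. The authors' deposited log2 values were not used.

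Of 30560 genes 24177 had a count, and 0 identifiers matched the symbols of the reference table, so planned lists by symbol, cell type markers, the Mbd3 gene and sequences were not analysed here. The filterByExpr function removed weakly counted genes (at least 10 counts in enough libraries and 15 in total were required). Libraries were scaled by TMM and genes tested with edgeR 4.0.16 in R 4.3.3 (quasi-likelihood F test, robust) with group and culture number as terms, and p was adjusted by Benjamini-Hochberg over every gene of the fit, with calls at 0.05. The pairing rests on the culture number in the labels and on the correlations of same-numbered libraries (0.362, 0.272 and 0.161, against -0.294 to 0.124 for different numbers). The contrast with the times used 54 libraries with a block per time point. Changes with time used 54 libraries with 1 block over all times. Log2 CPM had a prior count of 2. Differences within cultures were taken from log2 CPM, and differences between media from the edgeR fit. Span is the distance from the first to the last annotated base of a gene.

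Named genes are those with the smallest unadjusted p among genes with a mean log2 CPM of at least 1 and the same sign in 3 pairs, 10 per direction, of which at most 2 are printed. Members and lists were chosen with earlier results of these data known. The groups by change with time, by exon number and by level, the comparison of signs between constructs, the left-out pairs and the principal component were chosen after seeing these data. Alternatives included DESeq2 1.42.0 (genes with a total of at least 10), other scalings, filters, blocks and left-out cultures. Scripts were tested on simulated data.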

Additional observations from a re-analysis of the deposited data

Results flagged for a closer look

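Genes that changed with time in neither direction showed opposite signs in 2 constructs. Their mean log2 CPM was 3.57, 3.47 and 3.46 with magnesium and 3.46, 3.43 and 3.4 without it in GFP cultures 1, 2 and 3, lower in each, whereas rMBD3 cultures had 3.49, 3.43 and 3.41 with magnesium and 3.51, 3.44 and 3.42 without it, higher in each. The mean medium differences of the constructs differed by -0.08, GFP minus rMBD3, and this difference was not tested. The fitted median over the same 13359 genes in GFP cultures was 0.03, of the other sign than the mean of log2 CPM.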

How the results depend on the processing

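The count of 0 genes for the medium difference in GFP cultures was also 0 with no replicate block (18 libraries, 311 at an unadjusted p under 0.05; 54 libraries, 1190), with 1 block over all times (54 libraries, 1965), with relative log expression factors (1114), with no filter on low counts (1124) and without culture 1, 2 or 3 in the 18 libraries. It was 274 with 54 libraries and a replicate block per time point, 235 with the compared groups alone and the block, and 41 with DESeq2 and the block. Left-out cultures, an alternative chosen after seeing the data, gave 494, 1 and 65 genes in the fit of 54 libraries and 637, 484 and 0 in that of 6, without replicate 1, 2 and 3. The cause was not tested.

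For the other comparisons, where the 18 libraries gave 0, the fit of 54 libraries with the replicate block called 24 genes in untransfected cultures and 1 for GFP minus rMBD3. DESeq2 called 30 (untransfected), 31 (rMBD3), 24 (GFP minus untransfected), 29 (GFP minus rMBD3), 19 (24 h minus 2 h) and 17 (24 h minus 6 h). For the last pair the compared groups alone called 3 and 0, and left-out cultures gave 0 to 9 and 0 to 11. The cause was not tested.

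The median of the genes that fell with time was -0.69 to -0.49 under every alternative fit, -0.65 with classes from rMBD3 cultures and -0.22 with no minimum size of the time change, both chosen after seeing the data. For genes over 500 kb it was -0.63 to -0.42. No direction of a named gene or of these medians reversed. Without symbols no gene could be assigned a function, and with 3 cultures per group a gene at the floor of 0.103 to 0.155 CPM cannot show a fall.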
